A study of Homo sapiens with 20 samples.

Results

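The genes examined were 45 genes of the secretory pathway and the unfolded protein response, out of 20033 protein-coding genes of the annotation. A plasma cell needs this machinery to fold, check and export antibody. Every called ChIP-seq region that overlapped the body of a member gene, or the 10 kb upstream of it, on GRCh38 was taken from 20 peak lists. This gave 1060 regions of the 562813 that were used. The rule for the genes reads no value of the lists, but members and gene lists were chosen with earlier results of these data known. Each of the 45 had a region in at least 1 of the 4 myeloma DMSO lists.

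Newly made secretory and membrane proteins enter the endoplasmic reticulum (ER) through the SEC61 translocon, are folded there by chaperones and disulfide isomerases, and leave in COPII-coated vesicles. Misfolded chains are sent back to the cytosol for degradation. When unfolded chains accumulate, the ER membrane sensors IRE1 (gene ERN1), PERK (gene EIF2AK3) and ATF6 start the unfolded protein response, which raises chaperone and degradation genes. In plasma cells and in myeloma, a cancer of plasma cells, the load of immunoglobulin keeps this system highly active. IRF4 is a lymphoid transcription factor on which myeloma cells depend, and POU2AF1 (OCA-B) is a B cell coactivator that binds octamer DNA together with POU2F1 or POU2F2.

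Established lines of multiple myeloma, MM1.S and NCI-H929, were treated with 1 µM AU-15330 or with the vehicle DMSO, and IRF4 and POU2AF1 were precipitated from each. AU-15330 is a PROTAC that degrades SMARCA2, SMARCA4 and PBRM1 of the SWI/SNF chromatin remodelling complex, and the labels give 4 to 6 h of treatment for the study as a whole. The titles of both HA libraries of NCI-H1048 with AU-15330 state 6 h, and the legends of the study state 6 h for the myeloma libraries. The same treatments were given to NCI-H526 and NCI-H1048, lines of POU2F3-driven small cell lung cancer (SCLC-P), which are not plasma cells. In NCI-H526 the targets were POU2F3, HA-tagged POU2F3 and HA-tagged POU2AF2. In NCI-H1048 they were POU2F3, HA-tagged POU2F3 and an HA-tagged protein whose name the labels leave out. The named HA fusions carried a dTAG domain and were expressed from lentivirus in Cas9 lines in which the endogenous gene was targeted. Their level need not be that of the natural protein. The titles of the unnamed HA pair mention no dTAG domain. There was 1 library for each line, target and treatment, hence no replicate error, and no p-value is given. Intervals on shares are exact 95% (Clopper-Pearson) and cover counting error only.

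A level is the read pileup at the summit of a region divided by the background pileup of the same library. A promoter region lay within 1 kb of a protein-coding transcript start, and a member's own promoter within 1 kb of one of its own starts. Within a line and target, regions of both treatments that overlapped by at least 1 base were matched. A matched DMSO region is called retained and an unmatched one lost, and an unmatched AU-15330 region is called gained. Levels are scaled by the background pileup only, and fold values, where given, are over the local background.

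The myeloma lists held 1983 to 65176 regions. IRF4 had 6512 regions with AU-15330 and 33327 with DMSO in MM1.S, and 1983 against 65176 in NCI-H929. The title of the NCI-H929 IRF4 library with AU-15330 ends in the catalogue number of the study's IRF4 antibody, and the DMSO title has none. Whether antibody or batch differed between these libraries is not stated. POU2AF1 had 20678 with AU-15330 and 36604 with DMSO in MM1.S, and 16919 against 29818 in NCI-H929. Background pileups of the 8 myeloma libraries were alike, at 1.94 to 2.44 reads, and the lowest level in a list was 3.68 to 4.48. All 8 plasma cell marker genes had a region in each of the 4 myeloma DMSO lists, against 2 to 6 of the 8 in the SCLC-P DMSO lists. Of 8 tuft cell markers, 4 to 6 had a region in the myeloma DMSO lists and 7 to 8 in those of SCLC-P.

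Promoters of several members carry sequence elements named for the unfolded protein response. RefSeq promoters, 250 bases upstream to 50 downstream of a start on GRCh38.p14, were matched for 39 of the 45 members. The ER stress element (CCAAT and CCACG separated by 9 bases, either strand) was found in 5 of these 39 (12.8%), against 0.133% of 15843 protein-coding genes. The elements below are shown because POU2AF1 regions lay over them in both lines with DMSO, and IRF4 regions in NCI-H929. In MM1.S, IRF4 regions with DMSO covered only those of HSPA5 and PDIA6. The IRF4 summits lay 152 to 344 bases from the middle of the element. Each is written with 20 flanking bases, on the strand of the gene and with the element in capitals. HSPA5 lies at chr9:125241371-125241429 (minus strand), PDIA6 at chr2:10812833-10812891 (minus), CANX at chr5:179698758-179698816 (plus) and CALR at chr19:12938364-12938422 (plus), where the element runs in reverse.
HSPA5: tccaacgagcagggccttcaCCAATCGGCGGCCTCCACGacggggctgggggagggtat
PDIA6: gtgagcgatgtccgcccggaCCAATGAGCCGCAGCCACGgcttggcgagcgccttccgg
CANX: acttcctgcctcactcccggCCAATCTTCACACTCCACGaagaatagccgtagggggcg
CALR: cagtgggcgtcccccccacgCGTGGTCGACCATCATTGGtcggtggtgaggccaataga

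HSP90B1 carried 2 such elements in opposite directions, at chr12:103930216-103930234 and chr12:103930321-103930339. The UPR element TGACGTGG was present in 3 promoters (SSR3, SSR4 and HYOU1), 7.69% of matched members against 1.05% of all genes. The ATF4 element TGATGNAA was present in 2 (HERPUD1 and CREB3L2), 5.13% against 3.60%. The octamer ATGCAAAT occurred in 0 of the 39 promoters, against 2.22% of all genes. A pair of GAAA separated by 2 bases (IRF repeat) occurred in 1, SEC23B, 2.56% against 4.16%. GGAA and GAAA separated by 2 bases (ETS-IRF composite) occurred in 1, SSR4, 2.56% against 3.38%. A match describes letters only, and the ETS-IRF and IRF repeat patterns can share bases.

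Other sequences that the results below return to lie within 100 bases of called summits. They are printed on the strand of the gene, with the motif in capitals and 20 bases on either side. The ERN1 site is an ETS-IRF composite in an intron at chr17:64074540-64074589 (minus), under an IRF4 summit in both lines. The ELL2 site is an octamer in an intron at chr5:95926002-95926049 (minus). The last is the summit of the ATF6 promoter region, chr1:161766260-161766320 (plus), where the single capital is the POU2AF1 summit base in MM1.S with DMSO.
ERN1: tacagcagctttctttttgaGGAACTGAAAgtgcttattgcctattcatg
ELL2: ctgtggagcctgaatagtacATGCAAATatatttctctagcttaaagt
ATF6: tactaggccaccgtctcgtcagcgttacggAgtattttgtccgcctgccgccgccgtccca

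Most of these genes had IRF4 and POU2AF1 regions at their promoters in DMSO-treated myeloma cells. With AU-15330, POU2AF1 regions were still called at most of them and IRF4 regions at few. The IRF4 lists as a whole were also much smaller with AU-15330, and the cause was not tested. With equal numbers of the strongest regions in both treatments, IRF4 promoter retention in MM1.S was not below that of POU2AF1. Too few member IRF4 promoter regions were then left to compare the proteins. For IRF4 in MM1.S, 11 of 45 members had a region at their own promoter with AU-15330 (24.4%, against 15.1% of all protein-coding genes) and 36 with DMSO (80.0%, against 46.1%). For IRF4 in NCI-H929, 3 members had one with AU-15330 (6.67%, against 1.85% of all genes) and 43 with DMSO (95.6%, against 61.8%). The direction was the same in both lines, and member promoters were called more often than those of all genes in all 4 lists.

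For POU2AF1 in MM1.S, 41 members had a promoter region with AU-15330 (91.1%, against 47.6% of all genes) and 43 with DMSO (95.6%, against 57.7%). For POU2AF1 in NCI-H929 there were 42 with AU-15330 (93.3%, against 48.8%) and 43 with DMSO (95.6%, against 54.6%). Anywhere in the window, IRF4 had a region at 18 members with AU-15330 and 40 with DMSO in MM1.S (24.3% and 64.9% of all genes) and at 5 against 45 in NCI-H929 (5.83% and 79.8%). POU2AF1 had one at 44 against 45 in MM1.S (61.6% and 73.2%) and at 43 against 44 in NCI-H929 (59.7% and 69.7%). Member windows were shorter than those of other genes, with a median of 28398 bases against 37471, and the promoter shares of the 10120 genes with windows of similar length were close to those of all genes. Of these, 1650 had an IRF4 promoter region with AU-15330 and 4826 with DMSO in MM1.S, and 195 against 6418 in NCI-H929. For POU2AF1 these were 5061 against 6049 in MM1.S and 5147 against 5685 in NCI-H929. A wider list of 83 other pathway genes was counted in the same way. Of these, 23 (27.7%) had an IRF4 promoter region with AU-15330 and 65 (78.3%) with DMSO in MM1.S, and 3 (3.61%) against 78 (94.0%) in NCI-H929. POU2AF1 was at 72 of the 83 promoters with AU-15330 and 79 with DMSO in MM1.S, and at 69 against 79 in NCI-H929.

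**Figure D1:**
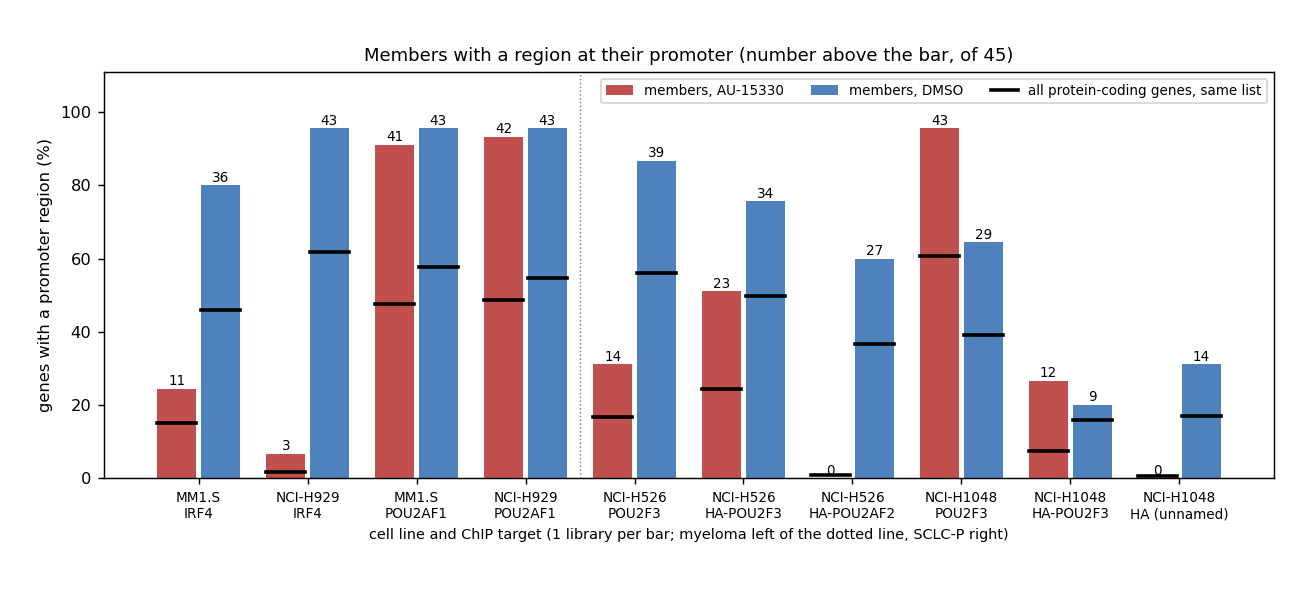
Percentage of the 45 member genes with a region at their own promoter in each of the 20 lists, AU-15330 in red and DMSO in blue, with the number of members above each bar and the percentage of all protein-coding genes in the same list as a black line (1 library per bar). The IRF4 bars with AU-15330 stand at 11 and 3 members against 36 and 43 with DMSO, whereas the POU2AF1 bars stand at 41 and 42 against 43 and 43.

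A total of 33 members had a promoter region of both proteins in both lines with DMSO, against 39.3% of all genes. With AU-15330, 39 members had a POU2AF1 promoter region in both lines (41.0% of all genes). Only P4HB and HERPUD1 had an IRF4 promoter region in both lines with AU-15330 (0.769% of all genes), and these were also the only members with a promoter region in all 8 myeloma lists (0.699% of all genes). Another 10 members had one in MM1.S or NCI-H929 alone. No member lacked a promoter region in all 4 myeloma DMSO lists, against 33.2% of all genes. At 10 members (DNAJB9, DNAJB11, SEC61B, SSR4, SPCS1, SPCS2, DERL1, DERL2, DDIT3 and EIF2AK3) the promoter region also lay within 1 kb of the start of another gene, and the 2 genes cannot be told apart there.

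**Figure D2:**
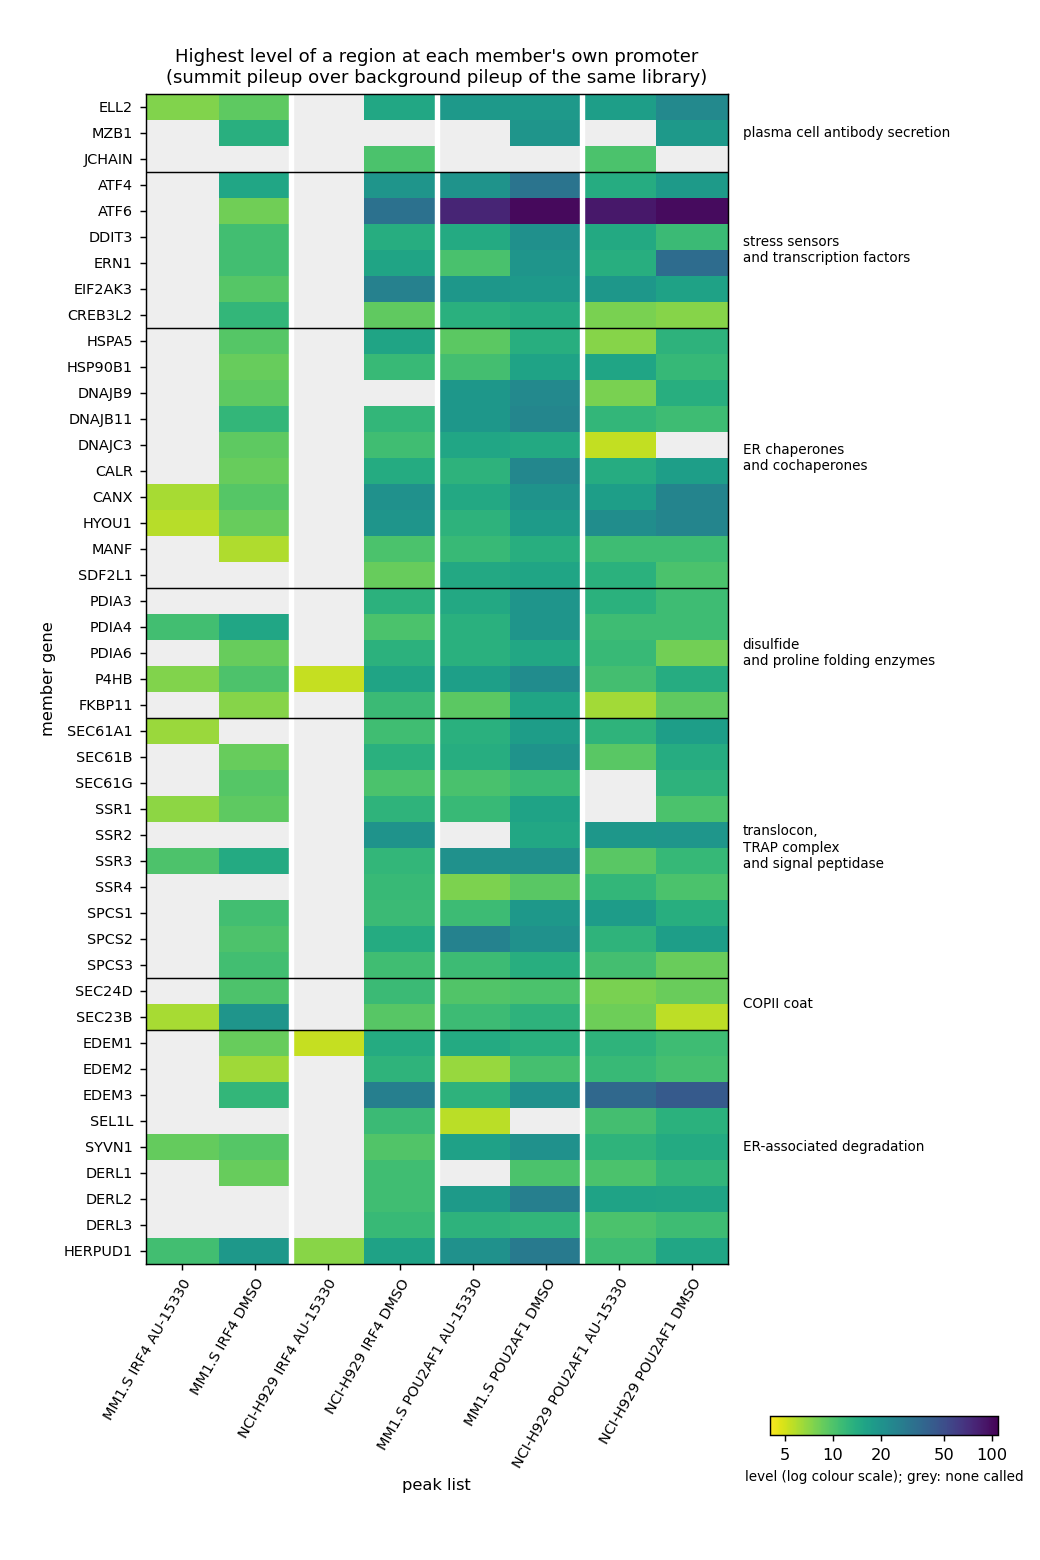
Highest level of a region at the own promoter of each of the 45 members (rows, grouped by role) in the 8 myeloma lists (columns, AU-15330 left of DMSO), on a log colour scale, with grey where none was called. The 2 IRF4 columns with AU-15330 are mostly grey, with 11 and 3 members coloured, and ATF6 is the darkest row in all 4 POU2AF1 columns, at 78.3 to 101.

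Promoter regions and other regions were then followed separately. In MM1.S, 13 of 50 IRF4 promoter regions of the members were retained with AU-15330 (26.0%, interval 14.6 to 40.3), against 19.9% of all IRF4 promoter regions. Of the other IRF4 regions, 4 of 36 were retained (11.1%, 3.11 to 26.1), against 5.43%. In NCI-H929, 2 of 68 promoter regions (2.94%, 0.358 to 10.2) and 0 of 69 other regions (upper bound 5.21%) were retained, against 1.92% and 0.592% of the list. IRF4 regions of these genes were thus lost in both classes, and at shares whose intervals include that of the whole list.

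For POU2AF1 the 2 classes separated. In MM1.S, 51 of 65 promoter regions of the members were retained (78.5%, 66.5 to 87.7), against 68.0% of all POU2AF1 promoter regions, and 8 of 44 other regions (18.2%, 8.19 to 32.7), against 15.9%. In NCI-H929, 44 of 51 promoter regions (86.3%, 73.7 to 94.3) and 6 of 32 other regions (18.8%, 7.21 to 36.4) were retained, against 74.1% and 16.3%. The intervals of the promoter and other classes did not overlap in either line. All 8 member intervals contained the share of the whole list in the same class, so within the promoter class and within the other class no difference of member retention from the list was detectable at these counts. With both classes pooled, member shares lay above those of the lists, beyond the interval for each but IRF4 in NCI-H929. IRF4 had 19.8% (12.0 to 29.8) against 9.76% in MM1.S and 1.46% (0.177 to 5.17) against 0.888% in NCI-H929. POU2AF1 had 54.1% (44.3 to 63.7) against 33.7% in MM1.S and 60.2% (48.9 to 70.8) against 38.4% in NCI-H929. The pooled member regions also held more promoter regions, for POU2AF1 65 of 109 in MM1.S and 51 of 83 in NCI-H929 (34.2% and 38.2% of the lists).

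**Figure D3:**
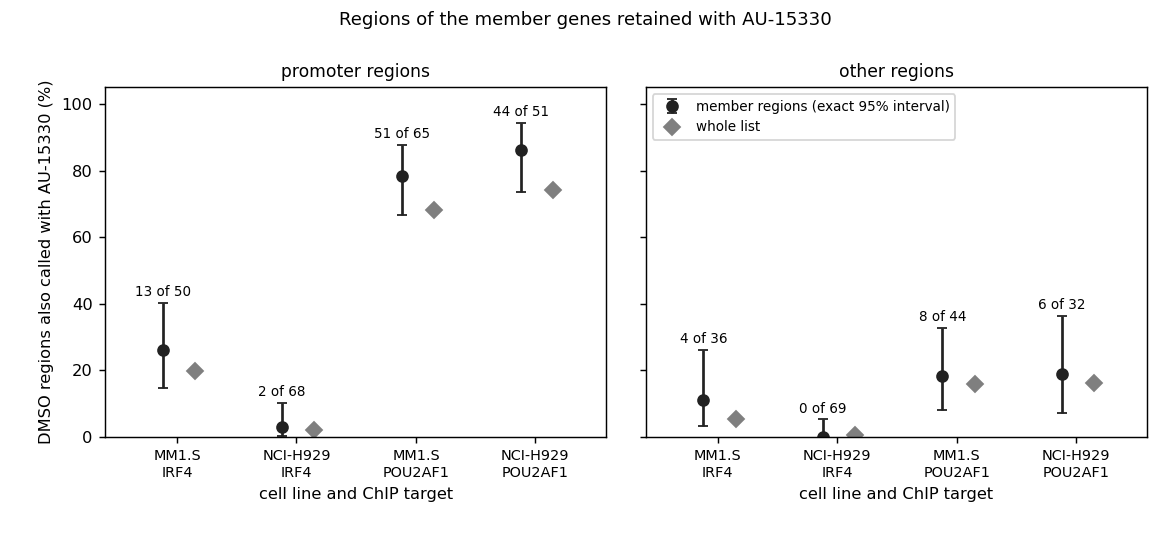
Percentage of DMSO regions also called with AU-15330, for promoter regions (left panel) and other regions (right panel) of each myeloma line and target, with black circles and exact 95% intervals for member regions and grey diamonds for the whole list. POU2AF1 promoter regions stand at 78.5% and 86.3%, and all other member classes at or below 26.0%.

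The retained IRF4 regions were also lower. All 17 retained member regions of IRF4 in MM1.S had a lower level with AU-15330, against 83.7% of those retained in the whole list, with a median ratio of AU-15330 to DMSO of 0.736 (whole list 0.733). Both regions retained in NCI-H929 were lower (81.9% of the whole list), with a median ratio of 0.482 (whole list 0.491). For POU2AF1 the ratio was below 1 at 40 of 59 retained regions in MM1.S (76.2% of the whole list), median 0.825 (whole list 0.809), and at 25 of 50 in NCI-H929 (52.8% of the whole list), median 1.00 (whole list 0.979). Scaled to the background of the AU-15330 library, the DMSO pileups would have passed its lowest called level at 98.8% to 100% of member regions in the 4 pairs, and by the p-value limit at 97.8% to 100%. Gained member regions numbered 8 of 24 for IRF4 in MM1.S, 3 of 5 in NCI-H929, and 13 of 69 and 13 of 67 for POU2AF1 in MM1.S and NCI-H929. The shares gained in the whole lists were 49.9%, 70.7%, 38.9% and 31.2% in the same order. By class, IRF4 gained 1 of 13 promoter regions (27.0% of the list) and 7 of 11 others (66.3%) in MM1.S. In NCI-H929 these were 1 of 3 (15.5%) and 2 of 2 (81.6%). POU2AF1 gained 3 of 51 (8.36%) and 10 of 18 (65.2%) in MM1.S, and 8 of 56 (11.4%) and 5 of 11 (57.9%) in NCI-H929.

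**Figure D4:**
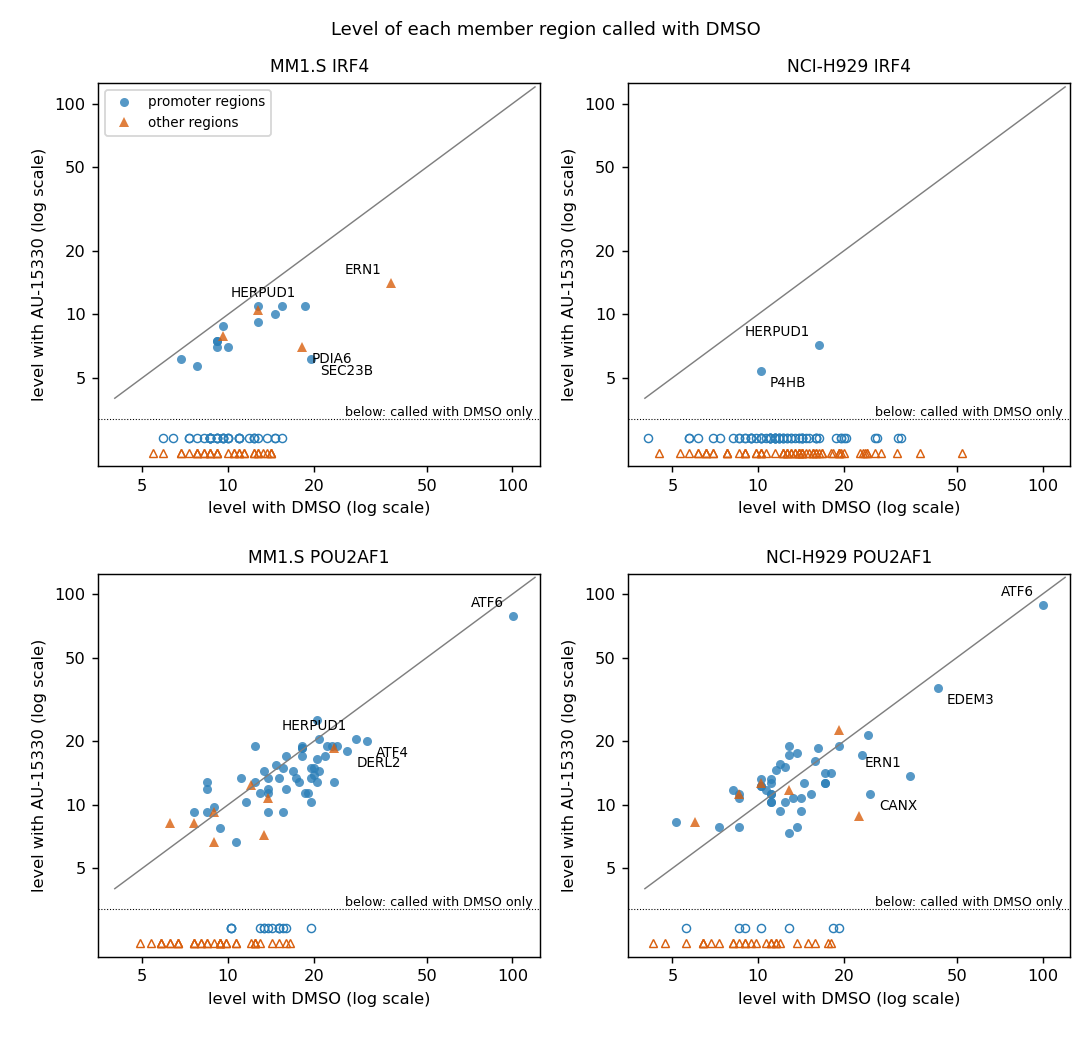
Level with AU-15330 (vertical, log scale) against level with DMSO (horizontal, log scale) for each member region called with DMSO, promoter regions as circles and other regions as triangles, with equal levels on the diagonal and regions called with DMSO only as open symbols below the dotted line. IRF4 points lie under the diagonal or in the strip of lost regions, and POU2AF1 promoter circles scatter along the diagonal up to ATF6.

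By fold over local background, the IRF4 promoter regions of the members were not strong for their list. The median fold enrichment of member IRF4 promoter regions with DMSO ranked at the 23.2 percentile of all IRF4 regions in MM1.S and at the 31.2 percentile in NCI-H929, against 43.3 and 48.9 for all promoter regions. For POU2AF1 the medians were 57.3 and 52.8, against 65.8 and 64.8. By level the order was the other way, and member promoter medians with DMSO lay above those of all promoter regions. They were 9.58 against 8.66 for IRF4 in MM1.S, 11.7 against 10.6 for IRF4 in NCI-H929, and 12.8 against 10.7 for POU2AF1 in NCI-H929. For POU2AF1 in MM1.S the member median was 15.6, against 12.0. When each list was divided by fold into the same number of regions in 5 bins, 36 of 86 IRF4 member regions of MM1.S fell in the lowest bin. Retention of POU2AF1 was higher in bins of higher fold in MM1.S, with 7 of 30 member regions in the lowest bin and 11 of 11 in the highest retained, against 12.3% and 69.8% of the list. In NCI-H929 the same counts were 4 of 17 and 10 of 13, against 16.9% and 73.7%.

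Among the stress sensors and transcription factors, all 6 had a promoter region of both proteins in both lines with DMSO. With AU-15330 all 6 had a POU2AF1 promoter region in both lines (41.0% of all genes), and 0 of 6 had an IRF4 one in either. Few genes of any kind had an IRF4 promoter region with AU-15330, 15.1% of all genes in MM1.S and 1.85% in NCI-H929. ATF6, a sensor that is cut in the Golgi to free a transcription factor, had by far the highest member level. Its promoter region at chr1:161765893-161766582 had a POU2AF1 level of 78.3 with AU-15330 and 101 with DMSO in MM1.S, and 89.2 against 100 in NCI-H929. By fold over local background (16.96 with AU-15330 and 18.1 with DMSO in MM1.S, 14.3 and 14.4 in NCI-H929) it ranked 39 and 53 in the MM1.S lists and 112 and 109 in those of NCI-H929. The POU2AF1 summits in the other 3 lists lay within 13 bases of the capital base shown above, and none of the 6 motifs searched lay within 100 bases of it. IRF4 levels at that region were 8.21 in MM1.S and 31.9 in NCI-H929 with DMSO, and no IRF4 region was called there with AU-15330. The region was also called in 9 of 12 SCLC-P lists, including all 6 with DMSO. In NCI-H929 with DMSO, 12 IRF4 regions lay in the ATF6 window, the highest intronic ones at 25.8 and 24.1, and none was retained.

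ERN1 encodes IRE1, the sensor kinase and endoribonuclease. Its intronic ETS-IRF site, in the region chr17:64074400-64074754, held the highest IRF4 level of any member in MM1.S, 14.0 with AU-15330 against 37.4 with DMSO. It ranked 90 with AU-15330 and 339 with DMSO by fold in the MM1.S lists. In NCI-H929 the site had an IRF4 level of 22.9 with DMSO and no call with AU-15330, and POU2AF1 was called there in none of the 4 lists. At the ERN1 promoter, POU2AF1 levels were 10.3 with AU-15330 and 19.6 with DMSO in MM1.S, and 13.7 against 34.2 in NCI-H929. IRF4 was called at the ERN1 promoter only with DMSO, at 10.9 in MM1.S and 16.0 in NCI-H929. An intronic site 25822 bases from the nearest start was called for both proteins in both lines with DMSO, at 8.13 to 27.0, and in no list with AU-15330.

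EIF2AK3 encodes PERK, the sensor kinase that slows translation. The region at its start, shared with RPIA, had POU2AF1 levels of 13.4 with AU-15330 and 13.8 with DMSO in MM1.S, and 19.1 against 12.8 in NCI-H929. IRF4 there had 7.75 in MM1.S and 25.8 in NCI-H929 with DMSO and no call with AU-15330. An internal EIF2AK3 start repeated the pattern, with POU2AF1 at 19.1 against 18.3 in MM1.S and 18.6 against 16.3 in NCI-H929, and IRF4 at 9.58 and 13.9 with DMSO only.

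ATF4, the transcription factor translated when PERK is active, had POU2AF1 promoter levels of 20.1 with AU-15330 and 30.8 with DMSO in MM1.S, and 14.2 against 18.0 in NCI-H929. IRF4 levels at ATF4 were 15.5 and 19.6 with DMSO, and the region was called in 10 of 12 SCLC-P lists. DDIT3 (CHOP), a factor of prolonged stress whose regions also lie near MBD6, had POU2AF1 at 14.4 against 20.9 in MM1.S and 14.7 against 11.6 in NCI-H929. CREB3L2, a membrane-bound relative of ATF6, had POU2AF1 at 13.4 against 14.3 in MM1.S and 7.84 against 7.27 in NCI-H929, and IRF4 at 12.3 in MM1.S and 8.998 in NCI-H929 with DMSO only. In this group no IRF4 promoter region was called with AU-15330, which was also rare among all genes, and POU2AF1 levels lay on either side of those with DMSO.

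**Figure D5:**
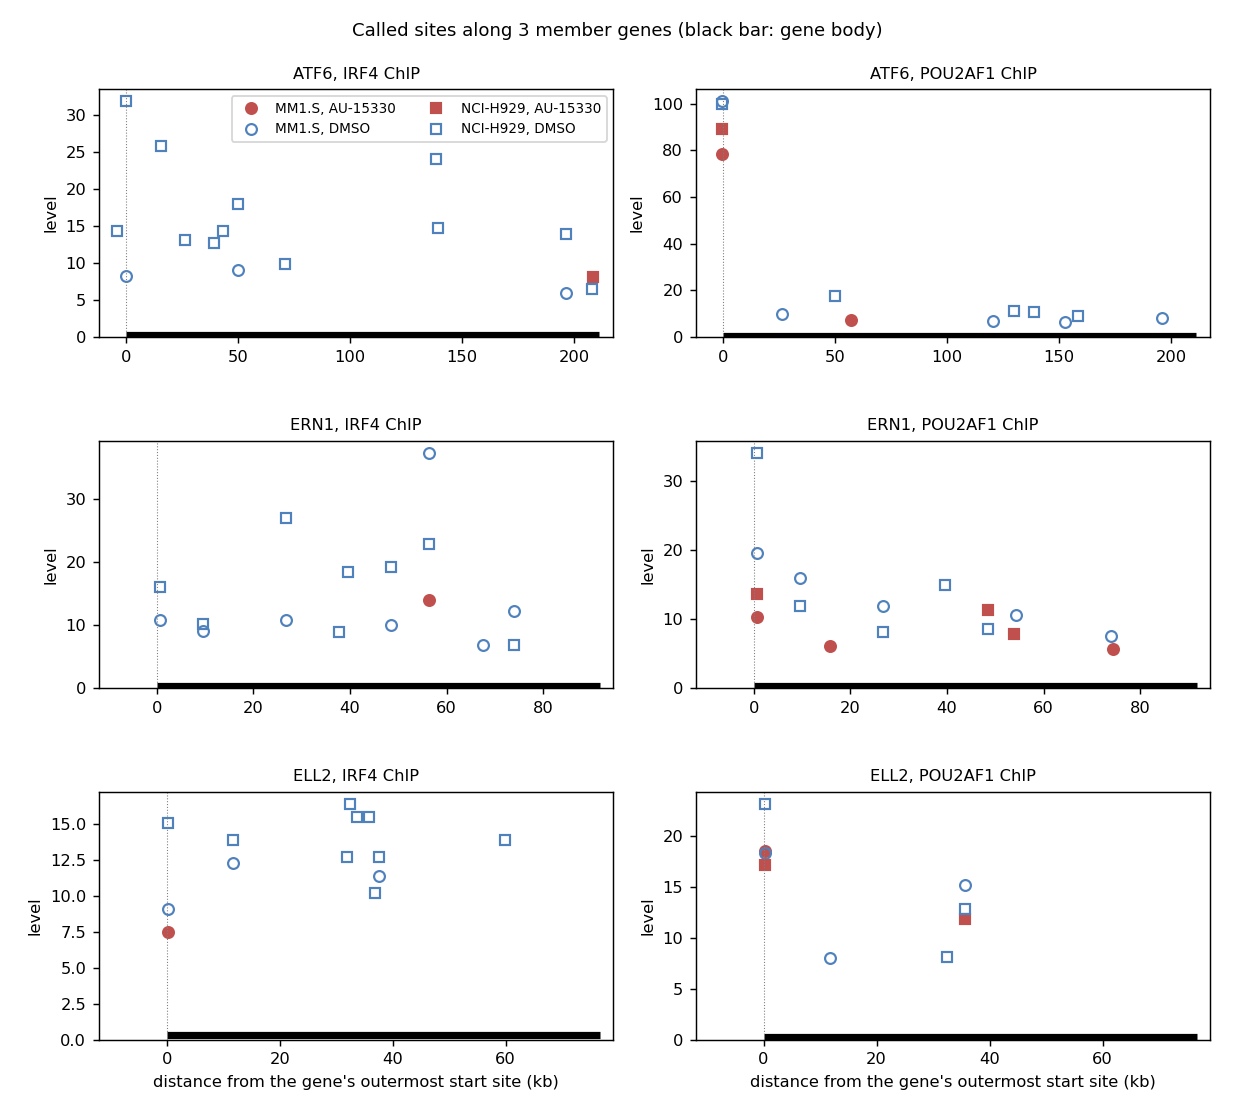
Level (vertical) of each called site against distance in kb from the outermost start of ATF6, ERN1 and ELL2 (rows) for IRF4 (left) and POU2AF1 (right), with filled red symbols for AU-15330, open blue symbols for DMSO, circles for MM1.S, squares for NCI-H929 and a black bar for the gene body. IRF4 sites run along all 3 genes with DMSO and are nearly all open symbols, and the POU2AF1 sites at the starts are present with both treatments.

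Of 10 ER chaperones and cochaperones, 2 (CANX and HYOU1) had an IRF4 promoter region with AU-15330 in MM1.S, against 9 with DMSO. The shares of all genes were 15.1% and 46.1%. In NCI-H929 the counts were 0 against 9 (1.85% and 61.8% of all genes). POU2AF1 was at all 10 promoters with AU-15330 in both lines (47.6% of all genes in MM1.S and 48.8% in NCI-H929). With DMSO it was at 10 in MM1.S (57.7%) and 9 in NCI-H929 (54.6%). HSPA5 (BiP), the main ER chaperone, had POU2AF1 levels of 9.27 with AU-15330 and 13.8 with DMSO in MM1.S, and 7.35 against 12.8 in NCI-H929. IRF4 at HSPA5 was called only with DMSO, at 9.58 in MM1.S and 16.0 in NCI-H929. The ER stress element of HSPA5 lay inside the DMSO regions of both proteins in both lines, 92 to 344 bases from their summits, and with AU-15330 only inside the POU2AF1 region in MM1.S.

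CANX, a lectin chaperone of glycoproteins, has starts at several places, and its element lies near the one at chr5:179698083-179699561. There POU2AF1 had levels of 14.9 with AU-15330 and 20.1 with DMSO in MM1.S, and 17.1 against 12.8 in NCI-H929. IRF4 there had 9.58 and 20.5 with DMSO only. At the upstream CANX start IRF4 was retained in MM1.S, at 6.14 against 6.84. CALR, the soluble relative of CANX, had POU2AF1 at 12.9 against 23.6 in MM1.S and 14.2 against 17.1 in NCI-H929. In both genes the element lay inside the POU2AF1 region of all 4 lists. No IRF4 region with AU-15330 covered any of the 6 elements found in the 5 genes. Few genes of any kind had an IRF4 promoter region with AU-15330 (15.1% in MM1.S and 1.85% in NCI-H929). With DMSO, IRF4 regions covered only the elements of HSPA5 and PDIA6 in MM1.S, and all but those of HSP90B1 in NCI-H929.

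DNAJC3, a cochaperone that also inhibits PERK, had POU2AF1 at 15.4 with AU-15330 and 14.7 with DMSO in MM1.S. In NCI-H929 its promoter was called at 5.39 with AU-15330 only, close to the lowest level a list held. DNAJC3, SEC24D, SEL1L, ATF4 and ERN1 were the 5 members with a gained POU2AF1 region in both lines (5.48% of all genes), and none had a gained IRF4 region in both (0.824%).

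The disulfide and proline folding enzymes held 2 IRF4 promoters of 5 with AU-15330 in MM1.S against 4 with DMSO (all genes 15.1% and 46.1%). In NCI-H929 these were 1 against 5 (1.85% and 61.8%). POU2AF1 was at all 5 in each list (47.6% to 57.7% of all genes). P4HB, a protein disulfide isomerase and collagen prolyl hydroxylase subunit, was the one called for IRF4 in every list. Its IRF4 levels were 7.46 with AU-15330 and 10.0 with DMSO in MM1.S, and 5.38 against 16.0 in NCI-H929, and its POU2AF1 levels 16.99 against 21.8 in MM1.S and 10.8 against 14.1 in NCI-H929. PDIA4 had IRF4 at 11.0 against 15.5 in MM1.S, and in NCI-H929 at 10.2 with DMSO only. PDIA4 had POU2AF1 at 13.4 against 19.6 in MM1.S and 11.3 against 11.1 in NCI-H929.

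PDIA6, a disulfide isomerase that also acts on the sensor IRE1, had a strong IRF4 site over a coding exon, chr2:10790525-10791123, 21662 bases from its nearest start. The level there was 7.02 with AU-15330 and 18.2 with DMSO in MM1.S, and 24.1 with DMSO only in NCI-H929. At the PDIA6 promoter, POU2AF1 had 13.4 against 15.2 in MM1.S and 11.8 against 8.13 in NCI-H929. PDIA3, which works with CANX and CALR, had POU2AF1 at 14.9 against 19.6 and 13.2 against 11.1, and IRF4 at its promoter in NCI-H929 with DMSO only, at 13.1. FKBP11, a proline isomerase abundant in secretory cells, had POU2AF1 at 9.27 against 15.6 in MM1.S and 6.37 against 8.99 in NCI-H929. Its IRF4 levels were 7.30 and 11.5 with DMSO only.

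The translocon, TRAP complex and signal peptidase form the entry gate. IRF4 was at 3 of these 10 promoters with AU-15330 and 7 with DMSO in MM1.S (15.1% and 46.1% of all genes). In NCI-H929 it was at 0 against 10 (1.85% and 61.8%). POU2AF1 was at 9 against 10 in MM1.S (47.6% and 57.7% of all genes) and at 8 against 10 in NCI-H929 (48.8% and 54.6%). SEC61A1, the channel itself, had an IRF4 region in MM1.S with AU-15330 only, at a level of 6.58, and in NCI-H929 with DMSO only, at 11.0. Its POU2AF1 levels were 13.4 against 17.4 in MM1.S and 12.7 against 17.1 in NCI-H929. SSR1, a TRAP subunit, had IRF4 at 7.02 against 9.12 in MM1.S and at 12.7 with DMSO only in NCI-H929. The SSR1 promoter had POU2AF1 at 11.8 against 16.0 in MM1.S and, with DMSO only, at 10.3 in NCI-H929. SSR3, another subunit, was the third of these genes with IRF4 in MM1.S, at 10.1 with AU-15330 against 14.6 with DMSO.

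The COPII coat was represented by SEC23B and SEC24D, which form the cargo-binding inner layer. SEC23B, whose promoter holds an IRF repeat, had IRF4 at 6.14 with AU-15330 and 19.6 with DMSO in MM1.S, the highest DMSO level of a member promoter in that list, and at 9.41 with DMSO only in NCI-H929. SEC23B had POU2AF1 at 11.3 against 12.9 in MM1.S and 8.33 against 5.56 in NCI-H929. SEC24D had POU2AF1 at its promoter at 9.78 against 8.91 in MM1.S and 7.84 against 8.56 in NCI-H929. An intronic site of SEC24D had POU2AF1 at 12.5 in MM1.S and 11.6 in NCI-H929 and, in NCI-H929, IRF4 at 16.8, each with DMSO only. An octamer lay within 100 bases of its summits in NCI-H929 but not in MM1.S.

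ER-associated degradation clears misfolded chains. IRF4 was at 2 of its 9 promoters with AU-15330 and 6 with DMSO in MM1.S (15.1% and 46.1% of all genes). In NCI-H929 it was at 2 against 9 (1.85% and 61.8%). POU2AF1 was at 8 against 8 in MM1.S (47.6% and 57.7% of all genes) and at 9 against 9 in NCI-H929 (48.8% and 54.6%). HERPUD1, a membrane scaffold of the degradation complex with an ATF4 element in its promoter, had IRF4 at 11.0 against 18.7 in MM1.S and 7.17 against 16.4 in NCI-H929. Its POU2AF1 levels were 20.6 against 28.1 and 11.3 against 15.4, lower with AU-15330 in each pair. EDEM1, a lectin that hands over glycoproteins, had an IRF4 region with AU-15330 in NCI-H929 at a level of 5.38, but it overlapped no DMSO region and counts as gained. EDEM1 had POU2AF1 at 14.4 against 13.4 in MM1.S and 12.7 against 11.1 in NCI-H929.

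SEL1L, the adaptor of the SYVN1 ligase, held the highest IRF4 level of any member. A region in one of its introns had a level of 51.9 in NCI-H929 and 14.1 in MM1.S with DMSO and no call in either line with AU-15330. POU2AF1 was called at that SEL1L region at 7.58, in MM1.S with DMSO only. DERL2, a retrotranslocation protein whose start faces that of MIS12, had POU2AF1 at 18.0 against 26.3 in MM1.S and 16.2 against 15.8 in NCI-H929. DERL3, a relative of DERL2, had POU2AF1 at 12.9 against 12.5 in MM1.S and 10.3 against 11.1 in NCI-H929. Upstream of DERL3, sites 5411 to 8445 bases from the start were called with DMSO, and of these only the POU2AF1 site at 8445 bases in NCI-H929 was called with AU-15330, at 12.7 against 10.3. EDEM3, named after its values were seen, had the second highest POU2AF1 promoter level in NCI-H929, 35.8 against 42.8, although its fold over local background was only 5.47 and 4.66.

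The 3 genes of plasma cell antibody secretion were ELL2, MZB1 and JCHAIN. IRF4 was at 1 of the 3 promoters with AU-15330 and 2 with DMSO in MM1.S (15.1% and 46.1% of all genes). In NCI-H929 it was at 0 against 2 (1.85% and 61.8%). POU2AF1 was at 1 against 2 in MM1.S (47.6% and 57.7% of all genes) and 2 against 2 in NCI-H929 (48.8% and 54.6%). ELL2, the elongation factor that favours secreted immunoglobulin mRNA, had POU2AF1 at 18.5 with AU-15330 and 18.3 with DMSO in MM1.S, and 17.1 against 23.1 in NCI-H929. IRF4 at the ELL2 promoter was 7.46 against 9.12 in MM1.S and 15.1 with DMSO only in NCI-H929. At the intronic ELL2 octamer, in chr5:95925926-95926304, POU2AF1 was 11.8 against 12.8 in NCI-H929 and 15.2 with DMSO only in MM1.S. IRF4 was called there at 15.5 in NCI-H929 with DMSO. The other intronic IRF4 sites of ELL2 in NCI-H929, at 10.2 to 16.4 with DMSO, were all lost.

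MZB1, an ER cochaperone of plasma cells, lost its promoter region for both proteins. POU2AF1 there was 19.6 in MM1.S and 18.4 in NCI-H929 with DMSO, IRF4 was 13.7 in MM1.S with DMSO, and no AU-15330 list had a call. A POU2AF1 site at chr5:139392421-139393232, 2508 bases upstream of MZB1, was retained, at 18.5 against 23.6 in MM1.S and 22.5 against 19.3 in NCI-H929. JCHAIN encodes the joining chain of polymeric antibody. Its intronic site at chr4:70678404-70678837 had IRF4 at 10.5 against 12.8 and POU2AF1 at 9.27 against 8.91 in MM1.S, and IRF4 at 20.04 with DMSO only in NCI-H929. The JCHAIN promoter was called for IRF4 with DMSO in NCI-H929 alone, at 10.2, and for POU2AF1 with AU-15330 in NCI-H929 alone, at 10.3. A region at the start of UTP3, inside the JCHAIN window, had IRF4 at 9.21 against 12.8 and POU2AF1 at 18.5 against 18.3 in MM1.S.

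IRF4 and POU2AF1 regions coincided at member promoters about as often as in the whole lists. With DMSO in MM1.S, 47 of 50 member IRF4 promoter regions overlapped a POU2AF1 region (94.0%, against 85.2% of all IRF4 promoter regions), and 16 of 36 other regions did (44.4%, against 42.9%). In NCI-H929 these were 48 of 68 (70.6%, against 71.7%) and 15 of 69 (21.7%, against 21.4%). In the reverse direction, 64.6% of member POU2AF1 promoter regions overlapped IRF4 in MM1.S (63.7% of the list) and 90.2% in NCI-H929 (90.8%), and of other regions 36.4% (41.0%) and 46.9% (59.2%). The difference between lines went with the number of IRF4 regions, which was larger in NCI-H929.

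Between the lines, promoter regions were shared more than others. Of member IRF4 regions of MM1.S with DMSO, 86.0% at promoters and 61.1% elsewhere overlapped IRF4 in NCI-H929 (85.3% and 56.5% of the list). Of those of NCI-H929, 55.9% and 31.9% overlapped IRF4 in MM1.S (56.0% and 25.7%). Of member POU2AF1 regions of MM1.S, 75.4% (promoter) and 11 of 44 (other) overlapped POU2AF1 in NCI-H929 (76.0% and 27.3%). Of those of NCI-H929, 98.0% and 34.4% overlapped POU2AF1 in MM1.S (84.6% and 36.0%).

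Near the summits (within 100 bases), member regions away from promoters held the motifs at shares that varied between lists. The IRF repeat was at 11 of 69 member IRF4 regions in NCI-H929 (15.9%, against 13.5% of the list) but at 1 of 36 in MM1.S (2.78%, against 14.1%). It was at 8 of 44 member POU2AF1 regions in MM1.S (18.2%, against 8.94%) and at 0 of 32 in NCI-H929 (against 7.66%). The octamer was at 3 of 44 in MM1.S (6.82%, against 5.81%) and 5 of 32 in NCI-H929 (15.6%, against 7.42%). Of the POU2AF1 regions with an IRF repeat, 0 of 8 were retained in MM1.S, where 15.9% of all POU2AF1 regions of this class were. Of those with an octamer, 0 of 3 were retained in MM1.S and 1 of 5 in NCI-H929, that of ELL2 shown above, where 16.3% of the class was.

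The SCLC-P lists served as a control, since these lines do not make antibody. Their targets differ as well, so line and target cannot be told apart. POU2F3 in NCI-H526 was at the promoters of 14 members with AU-15330 (31.1%, against 16.8% of all genes) and 39 with DMSO (86.7%, against 56.2%). In NCI-H1048 it was at 43 with AU-15330 (95.6%, against 60.7%) and 29 with DMSO (64.4%, against 39.1%), so the change had the opposite direction there. Member promoters were thus called more often than those of all genes in these POU2F3 lists too. HA-POU2F3 was at 23 against 34 in NCI-H526 (24.3% and 49.9% of all genes) and at 12 against 9 in NCI-H1048 (7.61% and 16.0%). HA-POU2AF2 was at 0 against 27 (0.953% and 36.8%), and the unnamed HA protein at 0 against 14 (0.729% and 16.9%). Of the member promoter regions with DMSO, AU-15330 retained 16 of 53 for POU2F3 in NCI-H526 (30.2%, against 22.5% of the list) and 33 of 33 in NCI-H1048 (against 89.8%). For HA-POU2F3 these were 19 of 45 in NCI-H526 (42.2%, against 34.4%) and 5 of 11 in NCI-H1048 (45.5%, against 20.1%). For HA-POU2AF2, 35 of 49 DMSO member regions (71.4%) would have passed the lowest level of the AU-15330 list, and 0 of 49 were retained.

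Most member promoter regions of the myeloma lines overlapped a POU2F3 region of NCI-H526, the longer of the POU2F3 lists with DMSO, and fewer overlapped one of NCI-H1048. Of member POU2AF1 promoter regions with DMSO, 73.8% in MM1.S and 82.4% in NCI-H929 overlapped a POU2F3 region of NCI-H526 with DMSO (67.8% and 69.9% of the lists). For IRF4 promoter regions the shares were 70.0% and 64.7% (63.5% and 60.6%). Away from promoters the overlap with NCI-H526 was small, at 9.09% and 3.12% for POU2AF1 (17.4% and 17.5% of the lists). For IRF4 it was 0 of 36 and 1 of 69 regions (11.2% and 9.81%). MZB1, FKBP11 and JCHAIN were the 3 members with a promoter region in a myeloma DMSO list and in none of the 6 SCLC-P DMSO lists. This is close to the share of all genes (7.86%). With AU-15330, POU2F3 in NCI-H1048 was at all 5 promoters of the disulfide and proline folding enzymes, FKBP11 among them. ATF4 and ATF6 were the 2 with a promoter region in all 6 (5.51% of all genes).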

How the data were processed

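ChIP-seq peak lists of 20 libraries were used, 1 per line, target and treatment. Per the study's methods and processing notes, reads were trimmed (Trimmomatic 0.39), aligned with BWA to GRCh38 (hg38), cleared of duplicates (SAMtools, Picard) and called per library with MACS2 at q 0.05 without a control, and blacklisted regions were removed. A lower fragment depth or immunoprecipitation efficiency can therefore give fewer regions. The authors deposited, per region, the fold enrichment over local background, the −log10 p-value and −log10 q-value, an integer score and the summit offset in bases. Coverage and read totals were not used here, and library depth is unknown.

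Gene bodies and starts came from GENCODE release 44. Regions outside the standard chromosomes (0.283% to 12.4% of a list) were left out. Summit pileups were recovered from fold and p (prior count 1, tolerance 0.002 on −log10 p), for 100% of regions in 18 lists and for 6.03% and 2.60% in the unnamed HA pair, which has no levels. The level divides the pileup by the lowest recovered background. Shares were compared by counts, and the calculation was tested on simulated regions. Python 3.11.15, NumPy 2.4.6, SciPy 1.17.1 and Matplotlib 3.10.9 were used.

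Members and gene lists were chosen with earlier results of these data known. Genes with full values were, for each myeloma pair, the 5 with the highest-fold promoter region and the 5 with the highest-fold other region with DMSO, 12 fixed genes of the response and of antibody secretion, members with no myeloma DMSO region, and members with a gained region in both lines, 25 genes in all. Of the other members, those named beside a count or an element stand outside this rule. The alternatives were a stricter q, other overlap rules, other windows and promoter distances, equal list sizes, other motif distances, and, after seeing the data, leaving out members that share a promoter and a depth check by p.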

Additional observations from a re-analysis of the deposited data

Results flagged for a closer look

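The number of members with a POU2F3 promoter region moved in opposite directions in the 2 SCLC-P lines: it fell by 25 with AU-15330 in NCI-H526 (14 members, against 39 with DMSO) and was higher by 14 in NCI-H1048 (43 members, against 29 with DMSO). With 1 library per group this difference was not tested. All POU2F3 regions of the lists moved the same ways, 17836 with AU-15330 against 89902 with DMSO in NCI-H526 and 51408 against 38036 in NCI-H1048. At retained member promoters in NCI-H1048 the median ratio of AU-15330 to DMSO level was 2.55 (2.12 in the whole list), and 33 of 33 promoter regions were retained (89.8% of the whole list).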

How the results depend on the processing

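No paired analysis was possible because each line, target and treatment had 1 library. Of the results for the myeloma lists under the alternatives, 119 stayed close to the values reported and 28 moved, and the cause was not tested. Close means a count within 1.5 times the reported one, or a share inside the reported share's 95% interval. Reported values stand in brackets where not named. Keeping only regions with −log10 q of at least 5, IRF4 windows in MM1.S with AU-15330 numbered 4 in place of 18, IRF4 promoters 2 in place of 11, and IRF4 promoters with DMSO 18 in place of 36. In NCI-H929 with AU-15330 both IRF4 counts became 0 in place of 5 windows and 3 promoters, and retained promoter regions 0% in place of 2.94%. The same limit gave 32.8% for MM1.S POU2AF1 promoters shared with IRF4 (64.6%), 95.7% for MM1.S IRF4 promoters shared with NCI-H929 (86.0%) and 36.4% for the reverse (55.9%). Windows with 50 kb on either side gave 29 IRF4 members in MM1.S and 9 in NCI-H929 with AU-15330, and counting only regions within 2 kb of a transcript start gave 3 in NCI-H929 with AU-15330.

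Requiring 50% of a region to be covered, retention became 6.00% (26.0%) and 2.78% (11.1%) for MM1.S IRF4 promoter and other regions, 0% for NCI-H929 IRF4 promoters and 66.2% (78.5%) for MM1.S POU2AF1 promoters. Shared promoters became 35.4% for MM1.S POU2AF1 with IRF4, 57.4% (70.6%) for NCI-H929 IRF4 with POU2AF1, 32.4% for NCI-H929 IRF4 with MM1.S and 63.1% (75.4%) for POU2AF1 between lines. Requiring summits within 200 bases gave 14.0% and 66.2% for MM1.S IRF4 and POU2AF1 promoter retention. With equal numbers of the strongest regions in both treatments, MM1.S retention was 100% (2 of 2) and 40.0% (2 of 5) for IRF4 promoter and other regions. For POU2AF1 promoters it was 92.9% (39 of 42). IRF4 promoter retention was then not below that of POU2AF1 (26.0% and 78.5% reported). However, 2 regions are too few to compare the proteins, and the lists were cut to 6512 regions for IRF4 and 20678 for POU2AF1. NCI-H929 IRF4 had no member promoter region left, and 0 of 1 other regions was retained. Motifs within 50 bases became 0 for the IRF repeat at MM1.S IRF4 and POU2AF1 promoters and the ETS-IRF composite at NCI-H929 IRF4 promoters.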
